A study of Homo sapiens with 52 samples.

Results

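A set of 10 genes of the NF-κB pathway was followed in WI-38 cells, which are normal human lung fibroblasts. They were chosen by gene symbol: the 5 subunit genes NFKB1, NFKB2, RELA, RELB and REL, the 3 inhibitor genes NFKBIA, NFKBIE and NFKBIZ, and the 2 feedback regulators TNFAIP3 and BIRC3. These are 10 of the 59408 genes that every deposited table lists, and all 10 passed, like 14898 genes in all, a filter of 10 normalised counts on average over the groups. Of the 10, 9 had a mean of at least 100 and REL did not.

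The wild-type cells were exposed for 24 h to 0.009% SDS, a detergent that damages the plasma membrane (PMD-Sen), to 75 mM KCl, used to let calcium in (Ca-Sen), or to 250 nM doxorubicin (DXR), which damages DNA (DDR-Sen). They were washed and sampled daily from day 0, the end of the exposure, to day 4, and again on days 6, 8 and 16. Replicatively senescent cells (RS) had been passaged until they stopped dividing, which the labels describe as telomere shortening, and the controls were untreated young cells of the same line. Each of the 26 groups holds 2 libraries, described in the study's methods as independent samples, and all 25 comparisons use the same pair of untreated libraries. One line was used throughout, so no result extends over donors. Because RNA came from whole cultures, fewer expressing cells and less RNA per cell cannot be told apart.

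NF-κB is a family of dimeric transcription factors. In resting cells most dimers are kept in the cytoplasm by inhibitor (IκB) proteins, and kinases called IKK mark those inhibitors for destruction when a receptor is engaged. The freed dimers then switch on inflammatory genes together with several of their own inhibitors, which closes the loop. In fibroblasts the pathway is known for driving the secreted cytokines and adhesion molecules of inflamed and senescent tissue.

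RELA encodes p65, the main activating subunit, and RELB and REL encode the other subunits with an activation domain. NFKB1 and NFKB2 encode the precursors of p50 and p52. NFKBIA encodes IκBα, the fastest of the feedback inhibitors, NFKBIE encodes IκBε, and NFKBIZ encodes IκBζ, a nuclear protein that can also assist transcription. TNFAIP3 encodes A20, which edits ubiquitin chains and dampens IKK activation, and BIRC3 encodes cIAP2, a ubiquitin ligase of the TNF receptor complex.

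In GENCODE 29 (build GRCh38) NFKB1 lies on chromosome 4 from 102501329 to 102617302, NFKB2 on chromosome 10 from 102394110 to 102402529 and RELA on chromosome 11 from 65653596 to 65663094. RELB lies on chromosome 19 from 45001430 to 45038198 and REL on chromosome 2 from 60881521 to 60931610. NFKBIA lies on chromosome 14 from 35401511 to 35404749, NFKBIE on chromosome 6 from 44258166 to 44265788 and NFKBIZ on chromosome 3 from 101827991 to 101861022. TNFAIP3 lies on chromosome 6 from 137867188 to 137883312 and BIRC3 on chromosome 11 from 102317450 to 102339403. RELA and TNFAIP3 overlap an annotated gene on the opposite strand and REL overlaps 2 short entries on its own strand. Whether the counting used strand is not given in the sources used here, so reads of the overlapping pairs could not be separated.

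RefSeq sequence of the 250 bases before a gene's start (GRCh38.p14) was found for 8 of the 10 genes in 13 windows, and not for RELB and NFKBIE. The κB consensus, the DNA motif that NF-κB dimers bind, was searched by its usual degenerate form on both strands. It matched in 9 of the 13 windows, in 7 of the 8 genes, against 5.21% of all 35116 windows of that length. RELA was the gene without a match. The AP-1 motif TGANTCA, which reads alike on both strands, matched in 0 of the 13 windows and in 6.57% of all windows. A match is a description of letters and not evidence of binding.

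The windows of 4 feedback genes are shown as examples, and each window shown holds a κB match. Windows of NFKB1, NFKB2 and REL with a match are not shown. The choice does not follow the number of changes described below. A link between a match and a change was not tested. Capitals mark the κB matches. They begin 81 bases before the start in NFKBIA (minus strand, chr14:35404750-35404999), 223 bases before it in NFKBIZ (plus strand, chr3:101827740-101827989), 67 and 55 bases before it in TNFAIP3 (plus strand, chr6:137867009-137867258), and 199 and 135 bases before it in BIRC3 (plus strand, chr11:102317234-102317483).
NFKBIA: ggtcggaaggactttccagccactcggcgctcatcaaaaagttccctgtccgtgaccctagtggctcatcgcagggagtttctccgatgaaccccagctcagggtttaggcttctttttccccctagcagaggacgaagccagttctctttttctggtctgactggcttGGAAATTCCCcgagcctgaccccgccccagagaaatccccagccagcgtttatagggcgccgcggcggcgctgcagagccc
NFKBIZ: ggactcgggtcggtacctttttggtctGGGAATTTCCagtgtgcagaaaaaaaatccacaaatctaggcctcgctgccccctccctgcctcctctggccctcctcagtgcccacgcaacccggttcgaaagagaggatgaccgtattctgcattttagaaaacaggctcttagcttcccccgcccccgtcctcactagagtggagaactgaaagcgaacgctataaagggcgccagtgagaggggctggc
TNFAIP3: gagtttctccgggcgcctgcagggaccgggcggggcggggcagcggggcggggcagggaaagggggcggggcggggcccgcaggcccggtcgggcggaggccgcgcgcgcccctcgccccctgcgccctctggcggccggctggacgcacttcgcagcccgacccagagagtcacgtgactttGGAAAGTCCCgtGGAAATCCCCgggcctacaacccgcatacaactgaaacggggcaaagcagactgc
BIRC3: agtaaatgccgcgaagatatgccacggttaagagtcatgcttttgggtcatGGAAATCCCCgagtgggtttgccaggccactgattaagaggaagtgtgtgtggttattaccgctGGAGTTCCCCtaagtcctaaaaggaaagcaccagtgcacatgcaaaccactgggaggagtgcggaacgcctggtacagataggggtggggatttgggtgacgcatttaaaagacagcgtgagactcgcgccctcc

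All libraries carried fibroblast RNA. The 8 fibroblast markers (COL1A1, COL1A2, COL3A1, VIM, THY1, PDGFRB, DCN and LUM) summed to between 241523 and 624190 normalised counts per group. The 8 leukocyte markers summed to between 23.0 and 214, with CD3E never above 2.67. The 4 endothelial markers summed to between 26.8 and 175 and the 4 epithelial markers to between 3.01 and 22.0. Within these low sums, PECAM1 reached 108 on Ca-Sen day 0 from 2.18 in untreated cells, and CD14 reached 203 on Ca-Sen day 8 from 21.7. Their part in the values of those days was not tested. The untreated libraries held about 18.8 and 15.4 M counted reads (M, 1e6 reads) and the treated ones between 19.1 and 58.0 M.

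Levels are normalised counts on 1 scale shared by all tables. Where a pair of values is given, the first is the library with more reads. The 2 untreated libraries had 2253 and 2188 normalised counts of RELA, 1375 and 1138 of NFKB2, 1040 and 1065 of NFKB1, 455 and 367 of RELB and 61.5 and 66.0 of REL. Of the inhibitors they had 800 and 870 of NFKBIA, 439 and 627 of NFKBIZ and 425 and 337 of NFKBIE. Of the 2 regulators they had 288 and 253 of TNFAIP3 and 353 and 261 of BIRC3. The pair was closest for NFKB1, at 0.03 on the log2 scale, and widest for NFKBIZ and BIRC3, at 0.51 and 0.44.

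Between genes, levels can be compared only per length of exon sequence. On that scale untreated cells had most RELA, at 406 normalised counts per kb, followed by NFKBIA at 352, NFKB2 at 280, NFKB1 at 168, NFKBIE at 148, RELB at 136 and NFKBIZ at 90.2. TNFAIP3 at 53.6, BIRC3 at 40.9 and REL at 4.84 were the scarcest.

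**Figure D1:**
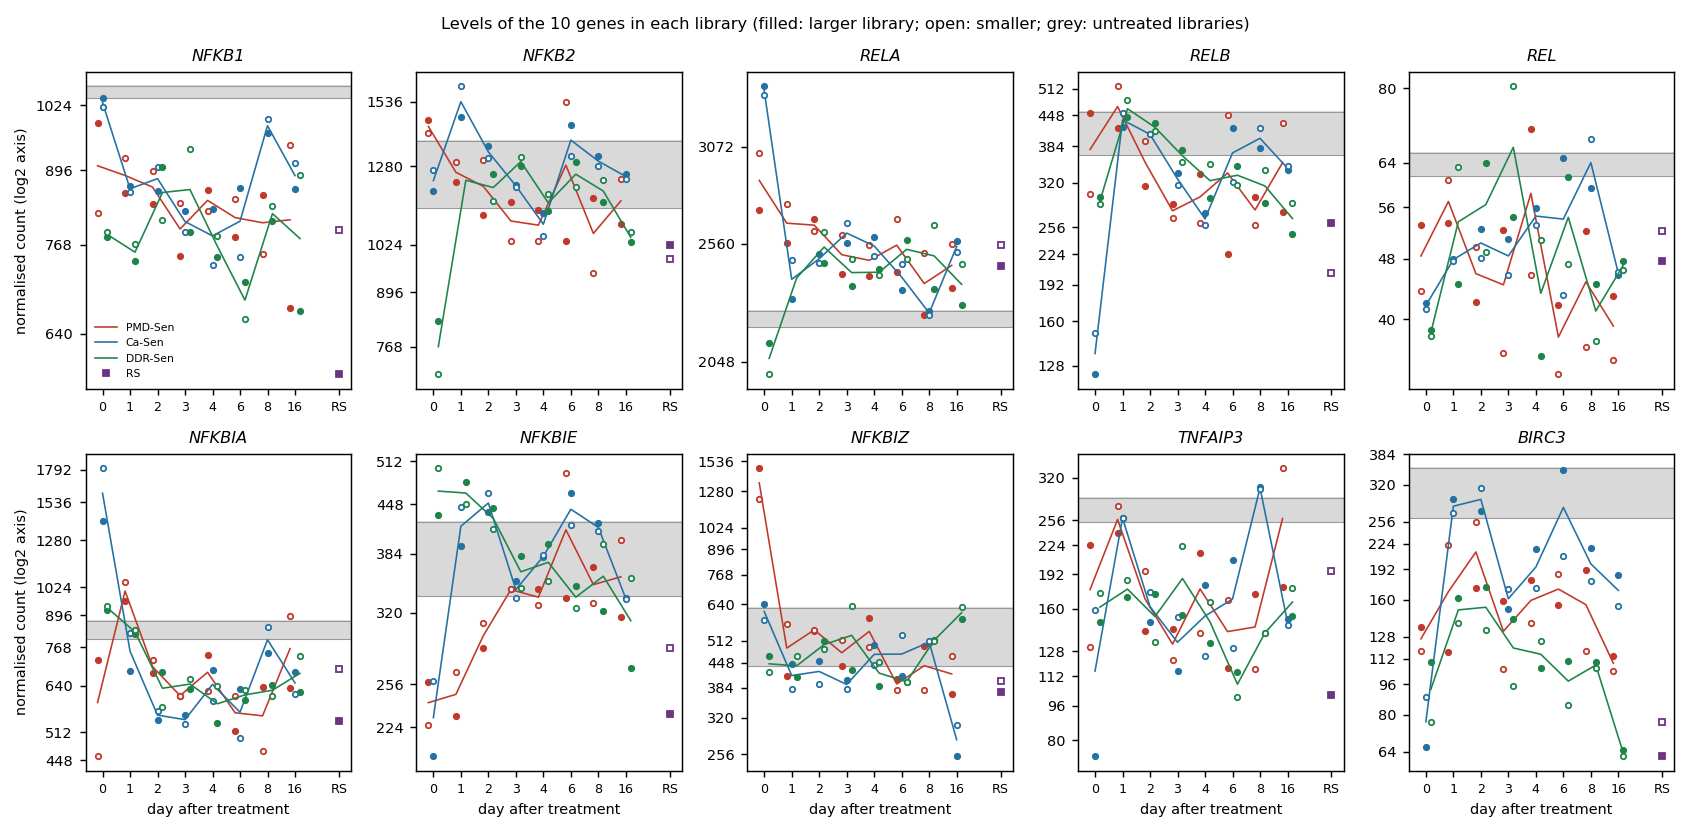
Normalised counts of the 10 genes (log2 axis) by day after treatment (days equally spaced), for the SDS (red), KCl (blue) and doxorubicin (green) series and for RS (purple squares). Filled symbols are the library with more reads and open symbols the other, lines join group levels, and the grey band spans the 2 untreated libraries. BIRC3 lies under the band in all but 3 of the 25 treated groups. NFKB1 does so in all 25, though its larger Ca-Sen day 0 library is level with the lower edge. The libraries of NFKB2 and RELA on DDR-Sen day 1 could not be separated and only the line passes there.

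Each treated group was compared with the untreated cells by the authors' fold changes and p-values, and a change was called at an adjusted p under 0.05. Of the 250 changes (10 genes in 25 comparisons) 72 were called, 66 of them lower and 6 higher. In each of the 72 both treated libraries lay beyond both untreated libraries, as they did in 94 of the 178 changes that were not called. The 178 include NFKB2 and RELA on DDR-Sen day 1, whose libraries could not be separated. Single libraries were recovered for listed genes only, so the share over all tested genes is not known and these counts are a description. BIRC3 and TNFAIP3 made up 36 of the 66 lower calls. The higher calls were RELA on 4 occasions, NFKBIZ once and NFKBIA once.

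In PMD-Sen, 22 of 80 changes were called over the 8 days, 4 higher and 18 lower. The 18 are 22.5% of the 80, and the 4 are 5.00%, whereas 9.52% of the changes of all tested genes were called lower and 9.01% higher over the same days. Of the 18 lower calls, 7 were of genes other than BIRC3 and TNFAIP3. On day 0, 2 of the genes were called higher (RELA and NFKBIZ) and 3 lower (NFKBIA, NFKBIE and BIRC3), and the shares of all tested genes were 19.8% higher and 20.2% lower. On day 1 RELA was called higher and NFKBIE and BIRC3 lower (all genes, 9.63% higher and 10.0% lower). Day 2 had RELA higher and TNFAIP3 lower (8.80% and 6.99%). On day 3 there were 4 lower calls, NFKB1, NFKBIA, TNFAIP3 and BIRC3 (5.42% and 6.06%). On day 4 BIRC3 was lower (7.31% and 8.38%). NFKBIA, TNFAIP3 and BIRC3 were lower on day 6 (5.78% and 6.97%) and again on day 8 (5.75% and 6.04%). By day 16 BIRC3 was the 1 gene called, lower (9.63% and 11.5%).

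In Ca-Sen, 20 of 80 changes were called, 2 higher and 18 lower, which are 2.50% and 22.5%, beside 8.31% and 9.79% of the changes of all tested genes. Genes other than BIRC3 and TNFAIP3 gave 9 of the 18 lower calls. Day 0 held 6 of the 20 calls, RELA and NFKBIA higher and RELB, NFKBIE, TNFAIP3 and BIRC3 lower (all genes, 23.6% higher and 26.5% lower). A day later 0 of the 10 were called by the authors' DESeq2 p-value after adjustment (5.34% and 7.13%). NFKB1 and NFKB2 were the 2 with an unadjusted p under 0.05. When scaled by library totals, NFKB2 was called higher on that day, at 0.34 on the log2 scale. NFKBIA and TNFAIP3 were lower on day 2 (1.77% and 2.56%). Lower calls on day 3 were NFKB1, NFKBIA, TNFAIP3 and BIRC3 (4.77% and 5.71%), and on day 4 NFKB1, RELB and TNFAIP3 (4.98% and 7.03%). On day 6 NFKBIA was lower (4.71% and 5.52%) and on day 8 BIRC3 (15.5% and 17.8%). On day 16 NFKBIZ, TNFAIP3 and BIRC3 were lower (5.79% and 6.08%). Day 8 had the largest shares of all genes called after day 0, and without it 19 changes were called in Ca-Sen.

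In DDR-Sen, 27 of 80 changes were called and all 27 were lower, 33.8% beside 11.6% of the changes of all tested genes. Genes other than BIRC3 and TNFAIP3 gave 12 of the 27. Of all tested genes 9.17% were called higher over these days. NFKB1, NFKB2, RELB, TNFAIP3 and BIRC3 were lower on day 0 (all genes, 12.9% higher and 14.9% lower). NFKB1, TNFAIP3 and BIRC3 were lower on day 1 (8.50% and 11.0%), TNFAIP3 and BIRC3 on day 2 (5.18% and 7.47%) and BIRC3 on day 3 (4.71% and 6.86%). The same 4 genes, NFKB1, NFKBIA, TNFAIP3 and BIRC3, were called lower on day 4 (7.92% and 10.5%), day 6 (10.7% and 13.8%) and day 8 (10.3% and 11.8%). On day 16 they were NFKB1, RELB, TNFAIP3 and BIRC3 (13.2% and 16.7%).

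In RS, 3 of the 10 genes were called, NFKB1, RELB and BIRC3, all lower (all genes, 11.6% higher and 11.5% lower). The median log2 fold change of the 10 genes was -0.51 in RS, -0.28 over the 80 changes after SDS, -0.18 after KCl and -0.30 after doxorubicin. The median of all tested genes was 0.01 in RS, 0.0065 after SDS, 0.00062 after KCl and -0.00040 after doxorubicin. Every comparison shares the untreated pair, so a chance high value there would lower a gene in all 25.

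**Figure D2:**
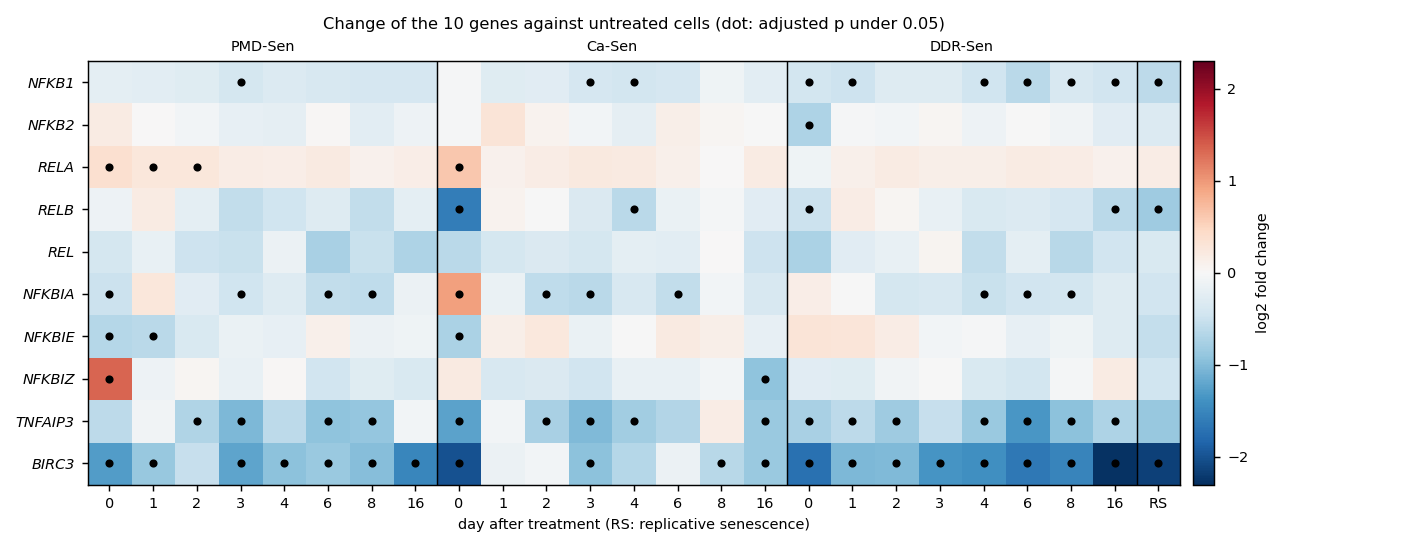
Log2 fold change of each gene against untreated cells (blue lower, red higher) for the 8 sampled days of each inducer and for RS. Dots mark the 72 changes with an adjusted p under 0.05; the BIRC3 row holds 20 of them and the TNFAIP3 row 16, all lower.

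BIRC3 was the gene with the most calls, lower in 20 of 25 comparisons: 8 of 8 in DDR-Sen, 7 of 8 in PMD-Sen, 4 of 8 in Ca-Sen, and RS. Its lowest group was DDR-Sen day 16, at 64.7 and 62.4 normalised counts against 353 and 261 in untreated cells, a log2 fold change of -2.27 ± 0.28 (SE; adjusted p = 3.86e-14). RS had 62.3 and 76.7, a log2 fold change of -2.15 ± 0.30 (adjusted p = 3.92e-11). The libraries of both groups lay far under the untreated pair. Day 0 of Ca-Sen had 65.8 and 88.8, a log2 fold change of -2.01 ± 0.26 (adjusted p = 3.72e-13). DDR-Sen had 110 and 76.7 on day 0 (-1.72 ± 0.27 on the log2 scale, adjusted p = 1.76e-09), and PMD-Sen had 136 and 117 (-1.28 ± 0.27, adjusted p = 1.23e-05). All 6 day 0 libraries thus lay under both untreated ones.

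The later levels of BIRC3 are described by inducer, and the inducers were tested against each other only on days 0 and 16. In DDR-Sen its group level went from 93.1 on day 0 through 153 on day 2 to 97.8 on day 6 and 63.5 on day 16. In PMD-Sen the highest group level was 213 on day 2, where the libraries had 172 and 256 and the fall of 0.53 ± 0.24 on the log2 scale did not pass (adjusted p = 0.124). PMD-Sen day 16 was lower again, at 114 and 104 (-1.50 ± 0.28, adjusted p = 1.89e-06). In Ca-Sen the libraries had 293 and 269 on day 1, 272 and 314 on day 2, and 349 and 209 on day 6. These 3 are the groups that overlap the untreated range, and their log2 fold changes were -0.13 ± 0.21, -0.07 ± 0.22 and -0.14 ± 0.30. On Ca-Sen day 16 it was at 185 and 154 (-0.86 ± 0.24, adjusted p = 0.00468).

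TNFAIP3, the A20 gene, was called lower in 16 comparisons: 7 in DDR-Sen, 5 in Ca-Sen and 4 in PMD-Sen. Its lowest group level was DDR-Sen day 6, at 115 and 100.2 normalised counts against 288 and 253, a log2 fold change of -1.33 ± 0.26 (adjusted p = 3.97e-06). Both libraries lay far under the untreated pair. On Ca-Sen day 0 the libraries had 73.5 and 159, a log2 fold change of -1.24 ± 0.32 (adjusted p = 0.000357). That pair was the widest of the gene, 1.11 apart on the log2 scale. With the larger library alone the log2 fold change was -1.88, and with the smaller library alone it was -0.77. On Ca-Sen day 3 (115 and 154) and PMD-Sen day 3 (144 and 122) the log2 fold changes were -1.01 ± 0.25 and -1.03 ± 0.26, with adjusted p = 0.00131 and 0.00126.

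In 3 groups TNFAIP3 overlapped the untreated libraries. They were PMD-Sen day 1 (239 and 275), Ca-Sen day 1 (259 and 259) and PMD-Sen day 16 (180 and 337). The highest group was Ca-Sen day 8, at 305 and 302, above both untreated libraries but not called (0.16 ± 0.19 on the log2 scale, adjusted p = 0.585). In RS the libraries had 102 and 196, and the value of -0.87 ± 0.37 did not pass (adjusted p = 0.0776).

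NFKBIA, the IκBα gene, was called lower in 10 comparisons and higher in 1. On Ca-Sen day 0 its libraries had 1401 and 1806 normalised counts against 800 and 870 in untreated cells, a log2 fold change of 0.94 ± 0.14 (adjusted p = 2.40e-10). These were the highest values of the gene in any library. On PMD-Sen day 0 they had 723 and 457, a log2 fold change of -0.50 ± 0.20 (adjusted p = 0.0352), and these 2 libraries were 0.66 apart on the log2 scale, the widest pair of the gene. That call was lost when scaled by library totals. DDR-Sen day 0 had 916 and 937, just above the untreated pair and not called (0.15 ± 0.13, adjusted p = 0.458).

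From day 2 on, the group level of NFKBIA was under the untreated level in every treated group. Its lowest group was Ca-Sen day 3, at 555 and 532 (-0.62 ± 0.14, adjusted p = 0.000367). Ca-Sen day 2 had 543 and 568 (-0.59 ± 0.14, adjusted p = 0.0020). In PMD-Sen the lower calls were on days 3, 6 and 8, with log2 fold changes of -0.45, -0.57 and -0.59. In DDR-Sen they were on days 4, 6 and 8, with -0.51, -0.45 and -0.41. On day 16 the log2 fold changes of -0.13 ± 0.21 after SDS, -0.36 ± 0.14 after KCl and -0.30 ± 0.16 after doxorubicin did not pass (adjusted p = 0.754, 0.0690 and 0.171). RS had 540 and 692 (-0.44 ± 0.21, adjusted p = 0.126).

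NFKBIZ, the IκBζ gene, had the largest rise of the 10. On PMD-Sen day 0 its libraries held 1472 and 1218 normalised counts against 439 and 627, a log2 fold change of 1.34 ± 0.18 (adjusted p = 1.43e-12). Both treated libraries were above every other library of the gene. A day later they held 412 and 568, a pair that overlaps the untreated one, with the larger library below both (-0.12 ± 0.21). The 1 lower call was Ca-Sen day 16, at 253 and 305 (-0.93 ± 0.21, adjusted p = 0.000148), the lowest group of the gene. Because the untreated libraries of NFKBIZ are 0.51 apart on the log2 scale, 19 of the 25 groups overlap them.

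NFKBIE, the IκBε gene, was called lower in 3 comparisons, all early. PMD-Sen had 258 and 226 normalised counts on day 0 (-0.66 ± 0.23 on the log2 scale, adjusted p = 0.0116) and 232 and 266 on day 1 (-0.62 ± 0.21, adjusted p = 0.0216), against 425 and 337 in untreated cells. Ca-Sen day 0 had 205 and 259 (-0.73 ± 0.21, adjusted p = 0.00162). DDR-Sen day 0 lay on the other side, at 433 and 501, and was not called (0.29 ± 0.19, adjusted p = 0.266). RS had 233 and 287 (-0.55 ± 0.25, adjusted p = 0.0975).

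RELA, the p65 gene, was the subunit with higher calls, in 4 comparisons. Ca-Sen day 0 had 3443 and 3387 normalised counts against 2253 and 2188, a log2 fold change of 0.62 ± 0.09 (adjusted p = 4.10e-11), the highest group of the gene. PMD-Sen had 2730 and 3039 on day 0 (0.38 ± 0.11, adjusted p = 0.00310), 2564 and 2759 on day 1 (0.26 ± 0.10, adjusted p = 0.0485) and 2679 and 2622 on day 2 (0.26 ± 0.09, adjusted p = 0.0342). The day 2 call was lost when the tables were scaled by library totals or centred on the median. The log2 fold change was above 0 in 24 of the 25 comparisons (23 when scaled by library totals) and its median was 0.17. DDR-Sen day 0 was the exception, at 2123 and 2001 (-0.11 ± 0.11, adjusted p = 0.540). Because the 25 comparisons share the untreated pair, their signs are not independent.

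NFKB1, the p105 and p50 gene, had a log2 fold change below 0 in all 25 comparisons and was called in 10. Scaled by library totals, 24 were below 0 and Ca-Sen day 0 was at 0.03. All 25 share the untreated pair, so these signs are not independent. The share of all tested genes with so many like signs is not given here. Its lowest groups were DDR-Sen day 6, at 711 and 659 normalised counts (-0.62 ± 0.13, adjusted p = 4.58e-05), and RS, at 589 and 792 (-0.61 ± 0.22, adjusted p = 0.0264). The untreated libraries held 1040 and 1065, and each treated pair lay under both. On Ca-Sen day 0 this was a near tie, with the larger library at 1039.6 against 1039.9. DDR-Sen gave 6 of the 10 calls, and its days 0 and 1 had 780 and 789 (-0.42 ± 0.13, adjusted p = 0.00579) and 744 and 770 (-0.48 ± 0.13, adjusted p = 0.00163). Its calls on DDR-Sen days 8 and 16 were lost when scaled by library totals. The smallest difference was on Ca-Sen day 0, at 1040 and 1019 (-0.03 ± 0.12, adjusted p = 0.851).

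NFKB2, the p100 and p52 gene, was called once, lower on DDR-Sen day 0. Its libraries held 826 and 710 normalised counts there against 1375 and 1138, a log2 fold change of -0.71 ± 0.15 (adjusted p = 2.49e-05). In the other 24 groups the level was between 1005 (RS) and 1535 (Ca-Sen day 1). The next neighbours of DDR-Sen day 0 in the order of levels, RS at 1025 and 985 and DDR-Sen day 16 at 1032 and 1062, did not pass (-0.32 ± 0.18 and -0.26 ± 0.15).

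RELB was called lower in 5 comparisons. On Ca-Sen day 0 it had 123 and 151 normalised counts against 455 and 367, a log2 fold change of -1.60 ± 0.22 (adjusted p = 1.46e-12), the largest fall of any subunit gene. RS followed with 262 and 204 (-0.82 ± 0.26, adjusted p = 0.00897). The other calls were Ca-Sen day 4 (275 and 259, -0.62 ± 0.20), DDR-Sen day 16 (247 and 289, -0.62 ± 0.22) and DDR-Sen day 0 (297 and 287, -0.50 ± 0.19), with adjusted p = 0.0192, 0.0167 and 0.0337. On PMD-Sen day 6 the 2 libraries held 224 and 449, almost 1 apart on the log2 scale.

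REL was the scarcest of the 10 and had no call. Its group levels lay between 37.9 (PMD-Sen day 6) and 67.0 (DDR-Sen day 3). Of 25 log2 fold changes, which share the untreated pair and are not independent, 23 were below 0. The largest in size was -0.75 ± 0.50 (adjusted p = 0.411), and 0 of the 25 had an unadjusted DESeq2 p under 0.05. With counts of 50 and 44 reads in the untreated libraries the median SE was 0.43, so a change of this size was not detectable at this depth.

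On day 0 the question was whether the 3 exposures differ from each other, and this was tested gene by gene on the difference of the 2 log2 fold changes. There were 13 calls in 30 such differences. PMD-Sen and DDR-Sen differed in 5 of the 10 genes (28.6% of all tested genes), PMD-Sen and Ca-Sen in 3 (38.6%), and Ca-Sen and DDR-Sen in 5 (37.1%). The shares of all genes were themselves high on this day.

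NFKBIA differed in all 3 pairs. PMD-Sen was below Ca-Sen by -1.44 on the log2 scale (95% interval -1.92 to -0.96, adjusted p = 5.22e-08) and below DDR-Sen by -0.65 (-1.13 to -0.18, adjusted p = 0.0280). Ca-Sen was above DDR-Sen by 0.79 (0.41 to 1.17, adjusted p = 0.000299). So the order on day 0 was Ca-Sen, DDR-Sen, PMD-Sen, each neighbour separated from the next.

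NFKBIZ in PMD-Sen exceeded DDR-Sen by 1.60 (1.08 to 2.12, adjusted p = 2.60e-08) and Ca-Sen by 1.14 (0.64 to 1.63, adjusted p = 4.56e-05), and the latter 2 were not separated (0.46, -0.05 to 0.98, adjusted p = 0.164). RELB in Ca-Sen was below DDR-Sen by -1.10 (-1.66 to -0.54, adjusted p = 0.000632), and in PMD-Sen it was above Ca-Sen by 1.48 (0.85 to 2.10, adjusted p = 2.13e-05). NFKBIE was lower in PMD-Sen and in Ca-Sen than in DDR-Sen, by -0.95 (-1.52 to -0.37, adjusted p = 0.00637) and -1.02 (-1.57 to -0.47, adjusted p = 0.00142).

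The subunits RELA and NFKB2 set DDR-Sen apart from both others. RELA was higher in PMD-Sen than in DDR-Sen by 0.48 (0.17 to 0.80, adjusted p = 0.0105) and in Ca-Sen by 0.73 (0.45 to 1.01, adjusted p = 3.14e-06). NFKB2 was higher by 0.90 (0.50 to 1.30, adjusted p = 9.40e-05) and 0.68 (0.29 to 1.06, adjusted p = 0.00246). For BIRC3 no pair passed, and the interval of PMD-Sen minus Ca-Sen ran from -0.02 to 1.47 (adjusted p = 0.121). For TNFAIP3 the same interval ran from -0.22 to 1.47 (adjusted p = 0.261).

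**Figure D3:**
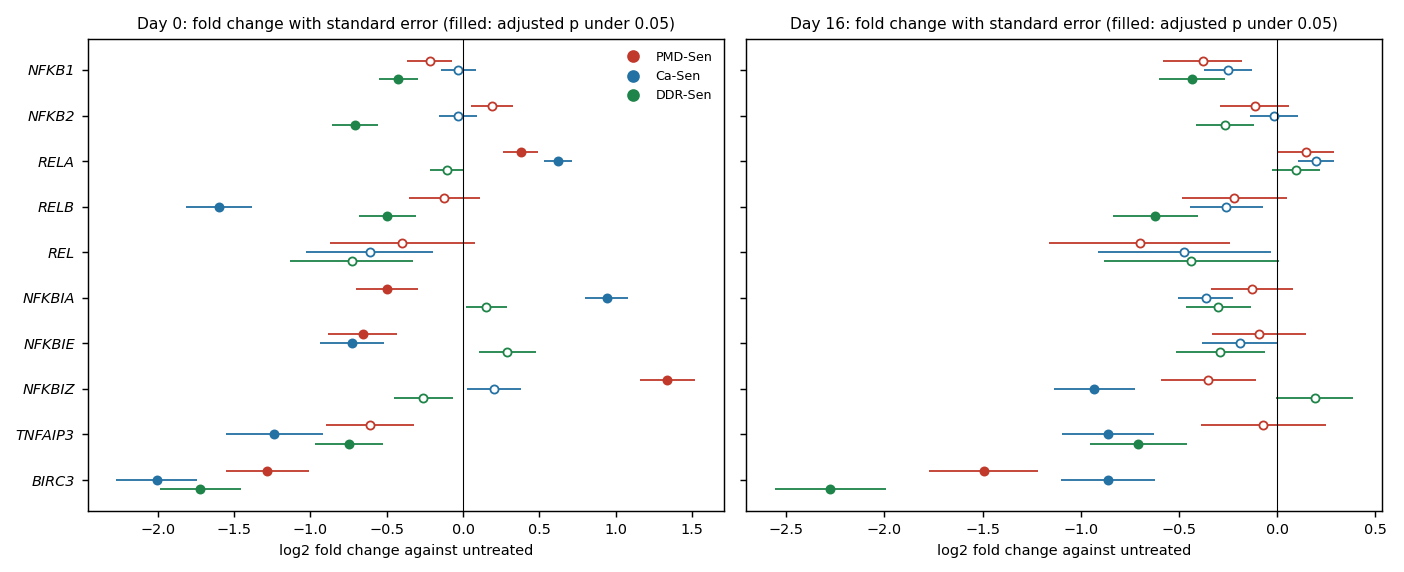
Log2 fold change against untreated cells with its standard error on day 0 (left) and day 16 (right) after SDS (red), KCl (blue) and doxorubicin (green), with filled points at an adjusted p under 0.05. On day 0 NFKBIZ in PMD-Sen (1.34) and NFKBIA in Ca-Sen (0.94) stand to the right and BIRC3 to the left in all 3; on day 16 BIRC3 ranges from -0.86 to -2.27.

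The first day after washing showed how far these values moved back. In Ca-Sen, 6 of the 10 genes differed between day 1 and day 0 (36.5% of all tested genes). RELB rose by 1.69 on the log2 scale (1.14 to 2.23, adjusted p = 1.72e-08), BIRC3 by 1.88 (1.22 to 2.54, adjusted p = 2.85e-07), TNFAIP3 by 1.17 (0.43 to 1.91, adjusted p = 0.00734) and NFKBIE by 0.86 (0.31 to 1.40, adjusted p = 0.00740). NFKBIA fell by 1.09 (-1.48 to -0.70, adjusted p = 4.79e-07) and RELA fell by 0.51 (-0.77 to -0.26, adjusted p = 0.000418). Each of the 6 moved towards the untreated level.

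PMD-Sen had 2 such differences (29.0% of all tested genes). NFKBIZ fell by 1.46 (-2.01 to -0.92, adjusted p = 1.40e-06), and NFKBIA rose by 0.77 (0.29 to 1.24, adjusted p = 0.00767) to 960 and 1050 normalised counts, above both untreated libraries though not called against them (adjusted p = 0.173). DDR-Sen had 1 (3.54%): NFKB2 rose by 0.68 (0.27 to 1.09, adjusted p = 0.0329). BIRC3 did not pass in PMD-Sen (0.40, -0.38 to 1.19, adjusted p = 0.534) or in DDR-Sen (0.69, -0.0049 to 1.39, adjusted p = 0.425).

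On day 16, the last day sampled, 2 of 30 differences between inducers passed. Both lay between Ca-Sen and DDR-Sen (6.38% of all tested genes). BIRC3 was higher in Ca-Sen by 1.41 (0.68 to 2.14, adjusted p = 0.00404), at 185 and 154 normalised counts against 64.7 and 62.4. NFKBIZ was lower in Ca-Sen by -1.12 (-1.68 to -0.57, adjusted p = 0.00251), at 253 and 305 against 585 and 630. In neither gene did the libraries of the 2 inducers overlap. Between PMD-Sen and DDR-Sen 0 of the 10 passed (0.195% of all tested genes) and between PMD-Sen and Ca-Sen 0 of the 10 (2.72%). In each of the 2 pairs, 1 gene had an unadjusted p under 0.05 in the test built on the DESeq2 standard errors. For BIRC3 in PMD-Sen minus DDR-Sen the difference was 0.78 with an interval from 0.0013 to 1.56 (adjusted p = 0.9998). For TNFAIP3 in PMD-Sen minus Ca-Sen it was 0.79 with an interval from 0.01 to 1.57 (adjusted p = 0.451), the PMD-Sen libraries being 180 and 337.

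**Figure D4:**
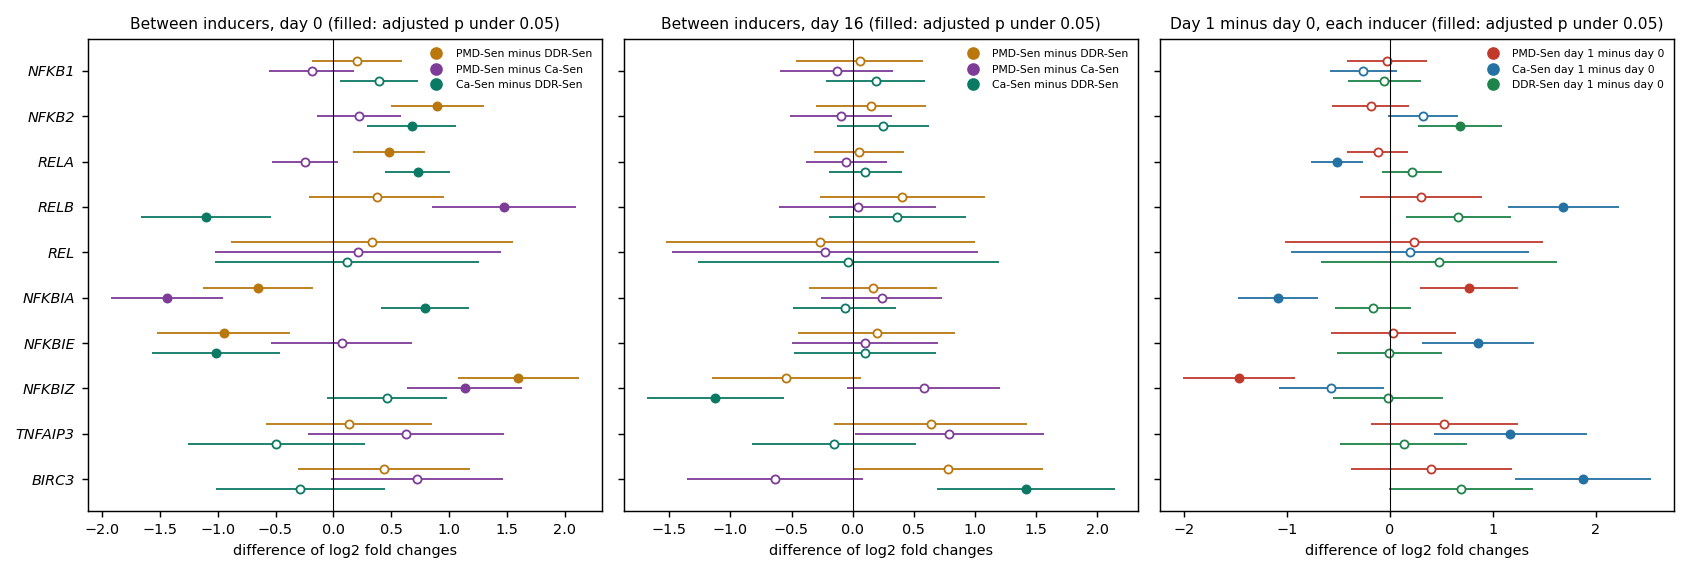
Differences of log2 fold changes with 95% intervals, between inducers on day 0 (left) and day 16 (middle) and between day 1 and day 0 within each inducer (right), with filled points at an adjusted p under 0.05. The 13 filled points on day 0 and the 2 on day 16 are the differences given in the text, and in the right panel 6 of the 9 filled points belong to Ca-Sen.

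The upstream machinery was described by a list of 36 genes for adaptors, kinases and ubiquitin enzymes, of which 34 were tested. On PMD-Sen day 0, 6 were higher and 8 lower, 17.6% and 23.5% of the list beside 19.8% and 20.2% of all tested genes. On Ca-Sen day 0, 10 were higher and 8 lower, 29.4% and 23.5% beside 23.6% and 26.5%. On DDR-Sen day 0, 4 were higher and 7 lower, 11.8% and 20.6% beside 12.9% and 14.9%. On day 16 the numbers were 1 and 2 after SDS (all genes, 9.63% and 11.5%), 1 and 2 after KCl (5.79% and 6.08%) and 3 and 4 after doxorubicin (13.2% and 16.7%), and in RS 3 and 2 (11.6% and 11.5%). The list's median log2 fold change stayed between -0.13 and 0.05 in all 25 comparisons, and that of all tested genes between -0.04 and 0.02.

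The genes that moved most in this list have different roles. MAP3K14, the NIK kinase of the non-canonical arm that processes NFKB2, was at 77.5 normalised counts on PMD-Sen day 0 from 339 in untreated cells (-2.13 ± 0.30, adjusted p = 2.09e-11). BCL3, an IκB-like cofactor of p50 and p52 dimers, was at 191 there from 759 (-1.99 ± 0.20, adjusted p = 1.05e-22) and at 1168 on Ca-Sen day 0 (0.62 ± 0.13). Over the 25 comparisons MAP3K14 was called lower in 15, and BCL3 lower in 17 and higher in that 1. TAB2, an adaptor of the TAK1 kinase, rose on Ca-Sen day 0 from 1898 to 4406 (1.21 ± 0.09, adjusted p = 1.02e-37). TRAF2, the partner that recruits BIRC3 to receptors, was at 349 in untreated cells and fell on day 0 of DDR-Sen to 174 (adjusted p = 6.79e-06) and of PMD-Sen to 217 (-0.68 ± 0.22, adjusted p = 0.00724). TAB3, a relative of TAB2, rose on day 0 of DDR-Sen from 558 to 984 (0.82 ± 0.14) and of Ca-Sen to 791 (0.50 ± 0.14, adjusted p = 0.000897).

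TRAF1, an adaptor that pairs with TRAF2, was at 266 in untreated cells and fell on day 0 of PMD-Sen and Ca-Sen, to 102 (-1.38 ± 0.28) and 120 (-1.15 ± 0.24). It was higher on day 16 of PMD-Sen and DDR-Sen and in RS, at 746 (1.49 ± 0.21, adjusted p = 7.36e-11), 1007 (1.92 ± 0.18, adjusted p = 1.82e-24) and 881 (1.73 ± 0.22, adjusted p = 1.89e-13). In the same 3 groups BIRC3 was at its -1.50, -2.27 and -2.15. BIRC2, the close relative of BIRC3, was lower on day 16 of all 3 inducers, by -0.89 ± 0.23 after SDS, -0.39 ± 0.12 after KCl and -0.70 ± 0.15 after doxorubicin. Over the 25 comparisons BIRC2 was lower in 11 and higher in 3, PMD-Sen day 0 among them (0.40 ± 0.14).

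BTRC, the receptor of the ubiquitin ligase that removes phosphorylated IκB, was called higher in 17 of 25 comparisons and lower in 0. Its log2 fold change was 0.43 ± 0.11 on Ca-Sen day 16 (adjusted p = 0.00203), 0.54 ± 0.13 on DDR-Sen day 16 (adjusted p = 0.000413) and 0.62 ± 0.15 in RS (adjusted p = 0.000601). IRAK3, an inhibitor of Toll-like receptor signalling, was called higher in 1 comparison and lower in 7. It was higher on PMD-Sen day 0 (0.86 ± 0.25, adjusted p = 0.00194), and the lower calls included Ca-Sen days 0, 1 and 3 (-0.64 ± 0.27, -0.84 ± 0.28 and -1.10 ± 0.30), DDR-Sen day 16 (-0.89 ± 0.31, adjusted p = 0.0157) and RS (-1.13 ± 0.37, adjusted p = 0.0140).

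Of 30 genes known as NF-κB targets 26 were tested. On PMD-Sen day 0, 8 were higher and 12 lower, 30.8% and 46.2% beside 19.8% and 20.2% of all tested genes. On Ca-Sen day 0, 8 were higher and 9 lower, 30.8% and 34.6% beside 23.6% and 26.5%. On DDR-Sen day 0, 4 were higher and 6 lower, 15.4% and 23.1% beside 12.9% and 14.9%. The list's medians were -0.39, -0.36 and -0.07 on the log2 scale. On day 16, 5 were higher and 1 lower after SDS (19.2% and 3.85%, beside 9.63% and 11.5%), 4 and 1 after KCl (15.4% and 3.85%, beside 5.79% and 6.08%) and 7 and 3 after doxorubicin (26.9% and 11.5%, beside 13.2% and 16.7%), with medians of 0.09, -0.15 and 0.10. RS had 6 higher and 2 lower (23.1% and 7.69%, beside 11.6% and 11.5%) and a median of 0.20. The days between did not run evenly from day 0 to day 16. Ca-Sen day 8 had the largest share higher of all comparisons, 11 higher and 3 lower (42.3% and 11.5%, beside 15.5% and 17.8%). Of the days between, PMD-Sen day 2 had the largest share lower, 3 higher and 10 lower (11.5% and 38.5%, beside 8.80% and 6.99%).

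VCAM1, an adhesion molecule for leukocytes, was at 695 normalised counts in untreated cells, and on day 0 at 60.7 after SDS, 37.1 after KCl and 222 after doxorubicin (log2 fold changes -3.52 ± 0.27, -4.23 ± 0.26 and -1.65 ± 0.22). On day 16 it was at 4971, 2377 and 7608, and in RS at 9210 (3.73 ± 0.87, adjusted p = 0.000208). CCL2, a monocyte chemokine, was at 53.5 on PMD-Sen day 0 from 726 (-3.76 ± 0.26) and at 1607 on its day 16 (1.15 ± 0.25, adjusted p = 6.85e-05). In RS CCL2 was at 3990 (2.46 ± 0.96, adjusted p = 0.0457). CXCL2 and CXCL3, neutrophil chemokines at 5.83 and 6.32 normalised counts in untreated cells, reached 244 and 143 on PMD-Sen day 0 (5.41 ± 1.20 and 4.53 ± 0.64), the group in which NFKBIZ was also at its highest.

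TNFAIP6, a matrix-binding anti-inflammatory protein, reached 629 on Ca-Sen day 0 from 35.4 (4.16 ± 0.26, adjusted p = 1.16e-53) and was at 10.5 on DDR-Sen day 16 (-1.75 ± 0.71, adjusted p = 0.0470). PTX3, a secreted pattern recognition protein, fell from 6665 to 1061 on DDR-Sen day 0 (-2.65 ± 0.43, adjusted p = 1.14e-08). MMP3, a matrix protease, was at 268 on Ca-Sen day 16 from 848 (-1.66 ± 0.50, adjusted p = 0.0110). On Ca-Sen day 0 the list thus held a fall (VCAM1) and a rise (TNFAIP6) of more than 4 on the log2 scale.

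For the 9 genes that average at least 100 normalised counts, the genes with the most alike log2 level over the 26 groups were listed by Pearson's r, as a description. The groups share the untreated scale and several share a day or an inducer, so they are not independent. SAFB, HNRNPF and LBR were closest to NFKB1 (r = 0.88, 0.85 and 0.85), THAP12 and ENOSF1 to NFKB2 (0.75 and 0.71), and ALG14, NCKAP1 and GPER1 to RELA (0.88, 0.87 and 0.87). ALG10B, MICAL1 and SLC5A6 were closest to RELB (0.87, 0.87 and 0.87). GGA2, ALDOA and FAM13A were closest to NFKBIA (0.88, 0.87 and 0.86), FDXR, ACAD10 and ZNF3 to NFKBIE (0.82, 0.80 and 0.80), and C1orf109, INPP5F and PDE4D to NFKBIZ (0.87, 0.84 and 0.83). TTI1, C1orf131 and ROBO1 were closest to TNFAIP3 (0.76, 0.75 and 0.73), and CDCA7, FAM111A and CWF19L1 to BIRC3 (0.85, 0.83 and 0.82).

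None of these is one of the 10 genes themselves. They were picked from 10568 tested genes, so this does not show that the 10 move apart. Among the 9, the highest r was 0.61, between RELB and BIRC3, followed by 0.59 between RELB and TNFAIP3, and the lowest was -0.71, between RELA and NFKBIE. NFKBIA had r between -0.32 (RELB) and 0.50 (NFKB1) with the others.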

How the data were processed

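RNA of WI-38 cultures was sequenced in 52 libraries, 2 in each of 26 groups, grouped by the labels. Per the labels, reads were processed with Trim Galore, HISAT2, HTSeq, featureCounts and DESeq2 on GRCh38; versions, the annotation and the strand setting are not given in the sources used here. The 52 deposited tables hold 25 distinct comparisons of a treated group with the same 2 untreated libraries. Each deposited table gives a signal per gene, which is the authors' mean count after DESeq2 normalisation, a log2 fold change, the standard error of that change and a p-value of DESeq2's Wald test. These columns of the authors' own comparisons are the only measurements in the tables and were used as deposited; the number of other value columns was 0. Their depth and error are those of 2 libraries a group.

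Genes with a mean of at least 10 normalised counts over the groups were kept (14898), and the deposited p-values were adjusted again over them by the Benjamini-Hochberg method. Levels were put on 1 scale through the untreated mean, which every table shares (8645 genes). Counts of single libraries were recovered as the whole numbers that give the deposited mean and fold change. The largest gap to a deposited log2 fold change was 0.019, and the libraries are known by their size but not by replicate number. Differences between 2 comparisons were tested two-sided with the normal distribution on their summed squared standard errors, which counts the shared untreated libraries in both. This gives too few calls and too wide intervals. The steps were tested on simulated data. For a simulated log2 change of 1, the difference test recovered 54.0% of the changed genes and the comparison with untreated cells 67.1%. For a simulated log2 change of 0.5, the difference test recovered 5.9% and the comparison with untreated cells 28.6%. At each size 200 of 14151 genes were changed. Recovery with as many changed genes as were called in the data was not tested. Scripts ran in python 3.11.15 with scipy 1.17.1, numpy 2.4.6 and pandas 2.3.3, and figures were drawn with matplotlib 3.10.9.

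The 10 genes and the lists of 36 and 30 pathway genes were chosen with earlier results of these data known. From each list were named the 2 called genes with the largest log2 fold change in size on days 0 and 16 of each inducer and in RS, with their other values, and for each of 9 members the 3 genes most alike in level (1 gene is not reported here). Alternatives were other filters, scalings and thresholds, the authors' adjusted p-value, and leaving out libraries.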

Additional observations from a re-analysis of the deposited data

Results flagged for a closer look

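These 15 differences between inducers passed the test of the difference itself, and they are given as log2 values with no explanation. On day 0, PMD-Sen minus DDR-Sen was 0.90 for NFKB2, 0.48 for RELA, -0.65 for NFKBIA, -0.95 for NFKBIE and 1.60 for NFKBIZ. On the same day, PMD-Sen minus Ca-Sen was 1.48 for RELB, -1.44 for NFKBIA and 1.14 for NFKBIZ. Ca-Sen minus DDR-Sen was 0.68 for NFKB2, 0.73 for RELA, -1.10 for RELB, 0.79 for NFKBIA and -1.02 for NFKBIE. On day 16, Ca-Sen minus DDR-Sen was -1.12 for NFKBIZ and 1.41 for BIRC3.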

How the results depend on the processing

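Counts of called changes fell most when a log2 fold change of at least 1 was also required: from 22 to 5 in PMD-Sen, from 20 to 4 in Ca-Sen, from 27 to 9 in DDR-Sen, from 3 to 1 in RS, from 13 to 6 for the day 0 differences and from 9 to 5 for day 1 minus day 0. At an adjusted p under 0.01 they fell to 8 in PMD-Sen and 13 in Ca-Sen. Both settings are stricter by construction. The other filters, scalings and the authors' adjusted p-value left each count within 1.5 times. Of the 250 single changes, scaling by library totals ended 4 calls and made 3. It ended NFKB1 on DDR-Sen days 8 and 16, RELA on PMD-Sen day 2 and NFKBIA on PMD-Sen day 0. It made NFKB1 on PMD-Sen day 4, RELB on PMD-Sen day 3 and NFKB2 on Ca-Sen day 1. Centring on the median ended 1 (RELA on PMD-Sen day 2) and made 3. Those 3 were NFKB1 on PMD-Sen day 4, RELB on PMD-Sen day 3 and BIRC3 on Ca-Sen day 4. Leaving out 1 library at a time turned the direction of 0 of the 72 called changes. It could not have done so, because both treated libraries lay beyond both untreated ones in each. No paired analysis was possible because the recovered libraries could not be matched to the replicate numbers of the labels. With 2 libraries a group, REL could not be resolved at its depth. Leaving out Ca-Sen day 8 was chosen after seeing the data.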
